A study of Mus musculus with 16 samples.

Results

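The comparison described here sets 3T3 cells that were transfected with any synthetic fragment of glycine tRNA (tsRNA-Gly) against 3T3 cells that were transfected without RNA. 3T3 is an established mouse fibroblast line. Of the 16 libraries of the series, 8 belong to this comparison by their labels: 6 with tsRNA-Gly and 2 "empty" ones. The 6 consist of 2 libraries each with a fragment without methylated cytosines (no m5C), with 4 m5C and with 5 m5C, all named 3'tsRNA-Gly in the titles. Every tsRNA-Gly group received 100 nM RNA with a lipid reagent, and the empty group received the reagent alone. The lipid complex was removed after 4.5 h in all 8, and total RNA was harvested at 12 h for a stranded mRNA library. The empty group holds no RNA of any kind, so an effect of this sequence and an effect of introducing any short RNA cannot be told apart in this design. Nothing in the labels states that replicates were separate cultures, and the p-values below reflect how far these libraries spread, which may be technical variation alone.

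Fragments of tRNA, called tsRNA, arise when a nuclease cuts a tRNA, and they are abundant in sperm. The cytosine methyltransferase Dnmt2 methylates several tRNAs, glycine tRNA among them, and this mark affects how readily a tRNA is cut and how it folds. Putting a synthetic fragment into cultured cells, with and without m5C, is a way to ask which messenger RNAs respond to the fragment itself. None of the sources used here gives the fragment's sequence, so none is printed.

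The libraries were alike in depth and makeup. They held 16326238 to 27014080 estimated counts, and replicate 1 was the deeper library in each of the 4 groups. Between 57028 and 63003 of 109282 listed transcripts had at least 1 count, and the 100 highest transcripts took 16.95% to 17.88% of the counts. Across the 44374 transcripts kept for testing, the log2 level correlated at r of 0.917 to 0.931 within the 4 groups and at 0.906 to 0.939 over the 12 pairs of an empty with a tsRNA-Gly library. Pairs across that divide were thus as alike as replicates; transcripts are not independent replicates. The transcript IDs are not paired with gene names in the files or in the tables used here, so the fibroblast identity was not checked against markers, no gene list was tested, and transcripts are described by ID or by length.

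No transcript passed the threshold when the 6 tsRNA-Gly libraries were compared with the 2 empty ones. In the quasi-likelihood test of edgeR on rounded estimated counts, 0 of 44374 transcripts (0%) had a Benjamini-Hochberg adjusted p under 0.05, and the lowest adjusted p was 0.533. At an unadjusted p under 0.05 there were 2147 transcripts (4.84%), of which 1001 were higher and 1146 lower with tsRNA-Gly. DESeq2 called 182 of these transcripts (0.41%), described further on, and limma on log2(TPM + 1) called 0. The median log2 fold change over all tested transcripts was -0.0047. In bulk RNA a change in the number of cells of a kind and a change of RNA per cell cannot be told apart, and this holds for every level below.

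Each version of the fragment gave the same count. Against empty, 0 of 44374 transcripts (0%) passed for no m5C, 0 (0%) for 4 m5C and 0 (0%) for 5 m5C, with lowest adjusted p of 0.492, 0.0565 and 0.613 in edgeR. Before adjustment, p was under 0.05 for 2079 (4.69%), 1934 (4.36%) and 2187 (4.93%) in the same order. These 3 comparisons share the 2 empty libraries, so a transcript that happens to be low or high there moves in all of them. A test of any difference among the 3 versions, which does not use the empty libraries' means, called 0 of 44374 transcripts in edgeR (lowest adjusted p = 0.13; before adjustment 1889 were under 0.05).

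The rule of a shared change was then read off the libraries themselves. All 6 tsRNA-Gly libraries lay above both empty libraries for 1682 of 44374 transcripts (3.79%) and below both for 1591 (3.59%). With only 2 empty libraries, such an order also arises without any effect, so these are not counts of changed transcripts. The share that chance gives was not estimated. More than 2-fold separation was rare: 104 transcripts had all 6 libraries over 2-fold above both empty libraries, and 37 had all 6 over 2-fold below.

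How much a null count means depends on the precision of each transcript. The 95% interval of the log2 fold change lay within 2-fold in both directions for 21127 of 44374 transcripts, or 47.6%, so that for these a shared change of more than 2-fold is outside the interval. For the others, the interval reached past 2-fold in at least 1 direction. The median SE was 0.579 on the log2 scale below 2 CPM (counts scaled to a common library size) and 0.0442 at 128 CPM and over, among transcripts with fractional counts.

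Fractional counts matter here because kallisto, the tool that made the deposited values, divides a read that fits several transcripts among them. A transcript whose estimated count is a whole number (within 0.001) in all 8 libraries shows no sign of such division, and 1406 of the 44374 tested transcripts were of this kind. They carried 8.617% to 8.974% of the counts of a library. This split was made after seeing the data, and it uses no difference between groups. The 2 kinds of transcript differed in spread. The 4 replicate pairs correlated at r of 0.988 to 0.991 over the whole-count transcripts, against 0.917 to 0.931 over all. At 2 to 8 CPM the median SE was 0.191 for whole and 0.268 for fractional counts, and the interval lay within 2-fold for 97.8% and 60.1%. At 8 to 32 CPM the median SE was 0.0953 and 0.128.

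**Figure D1:**
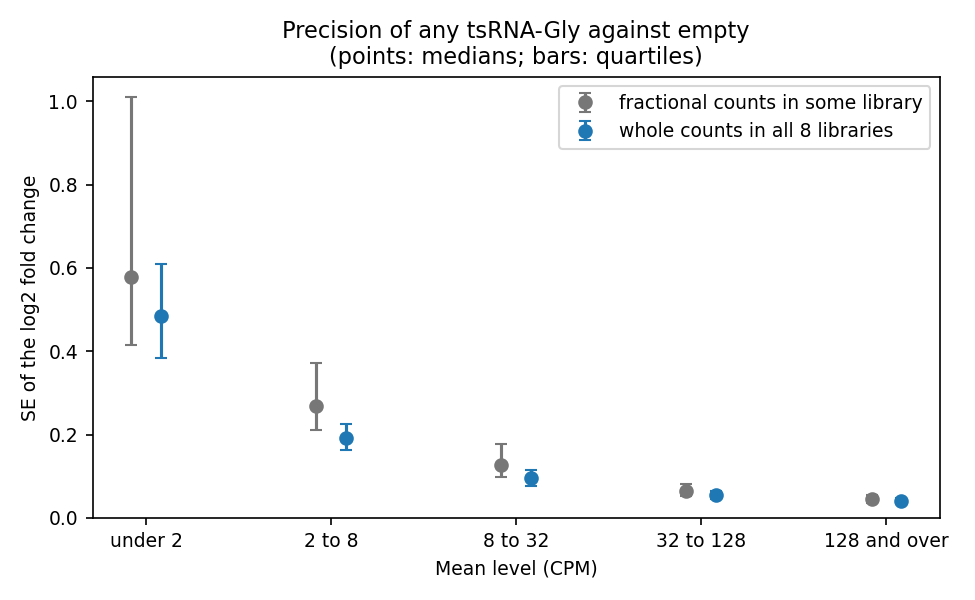
SE of the log2 fold change for any tsRNA-Gly against empty, by mean level in CPM, with medians as points and quartiles as bars. Transcripts with whole counts in all 8 libraries have the lower median at every level, and the gap narrows from 0.268 against 0.191 at 2 to 8 CPM to 0.0442 against 0.0403 at 128 CPM and over.

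The largest separations between the groups were found among transcripts with fractional counts. All 104 transcripts over 2-fold above both empty libraries and all 37 over 2-fold below had fractional counts, 0.242% and 0.0861% of the 42968 of that kind, against 0 of 1406. The whole-count transcripts were few and also more abundant, with a median of 9.78 CPM against 2.25 over all tested. Counts of 0 in both empty libraries and above 0 in all 6 others occurred for 56 transcripts (0.126% of those tested). The reverse occurred for 8 (0.018%), and again 0 of them had whole counts. The first pattern asks for a 0 in 2 libraries and the second in 6, so 56 and 8 cannot be set against each other. A count of 0 in 1 library beside more than 3 counts in another occurred for 15.5% of the fractional and 1.21% of the whole-count transcripts. Whether the division of reads among related transcripts makes these patterns was not tested.

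**Figure D2:**
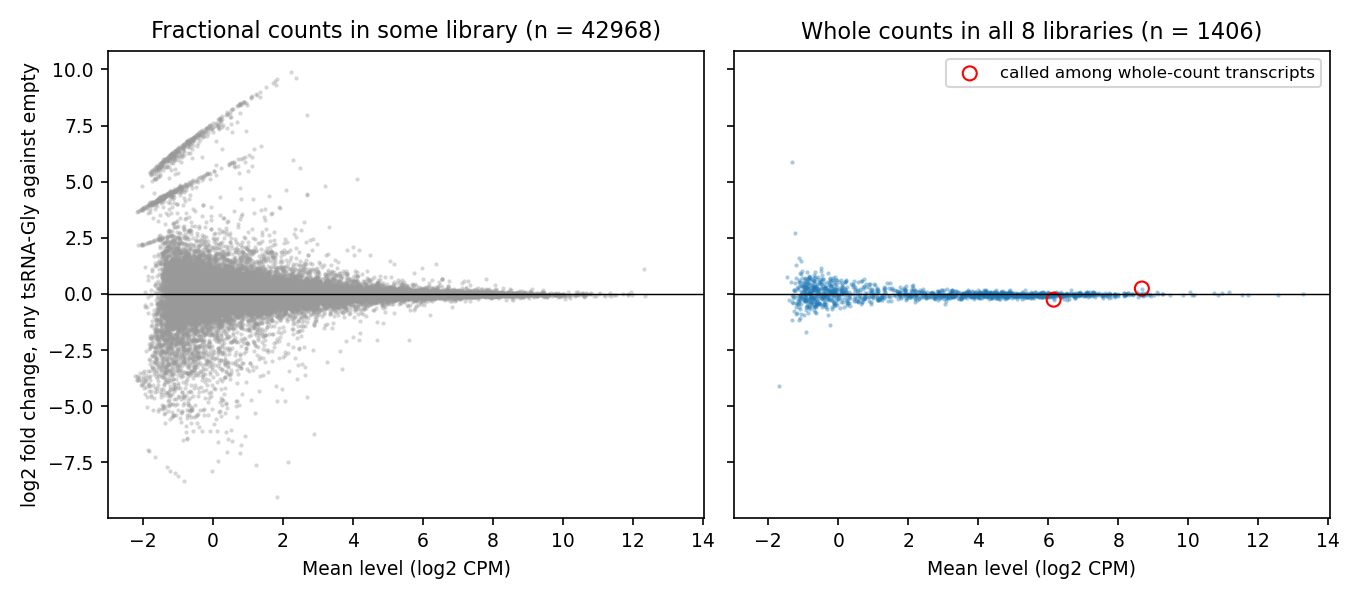
log2 fold change of any tsRNA-Gly against empty (vertical) by mean log2 CPM (horizontal), each point a transcript. The left panel holds the 42968 transcripts with a fractional count in some library and the right panel the 1406 with whole counts; red circles mark the 2 called among the latter, and the wide fans at low levels are on the left.

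The 2 transcripts of lowest p in each direction with one sign in all 3 versions illustrate this. ENSMUST00000159091.8, 3197 bases long, had rounded counts of 0 and 0 in the empty libraries. It stood at 1.759 and 3.153 CPM with no m5C, 3.269 and 5.348 with 4 m5C, and 3.262 and 5.337 with 5 m5C. All 6 libraries with the fragment were higher, with a mean of 3.69 CPM ± 1.4 (SD, n = 6) against 0 in both empty ones. That mean was 19.8-fold the floor of 3 counts in the shallower empty library (0.186 CPM), a floor that covers counting error only. The adjusted p was 0.533 in edgeR, so the difference did not pass there. DESeq2, described further on, called it (adjusted p = 1.84e-05). Its counts were fractional, such as 35.676 in no m5C replicate 1.

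ENSMUST00000164774.7, 3515 bases long, had the lowest p below empty. It stood at 3.382 and 3.542 CPM in the empty libraries and at 1.09 and 2.09 CPM with 4 m5C. In the 4 libraries with no m5C and 5 m5C its rounded count was 0. The groups did not overlap, with a mean of 3.46 CPM ± 0.113 (SD, n = 2) in empty and 0.53 ± 0.88 (SD, n = 6) with tsRNA-Gly. The adjusted p was 0.533 in edgeR and 1.54e-08 in DESeq2, so this transcript too was called by DESeq2 alone. Its counts were fractional too, with 84.394 in empty replicate 1, and the versions differed at an unadjusted p of 0.000359 (adjusted p = 0.394 in edgeR).

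**Figure D3:**
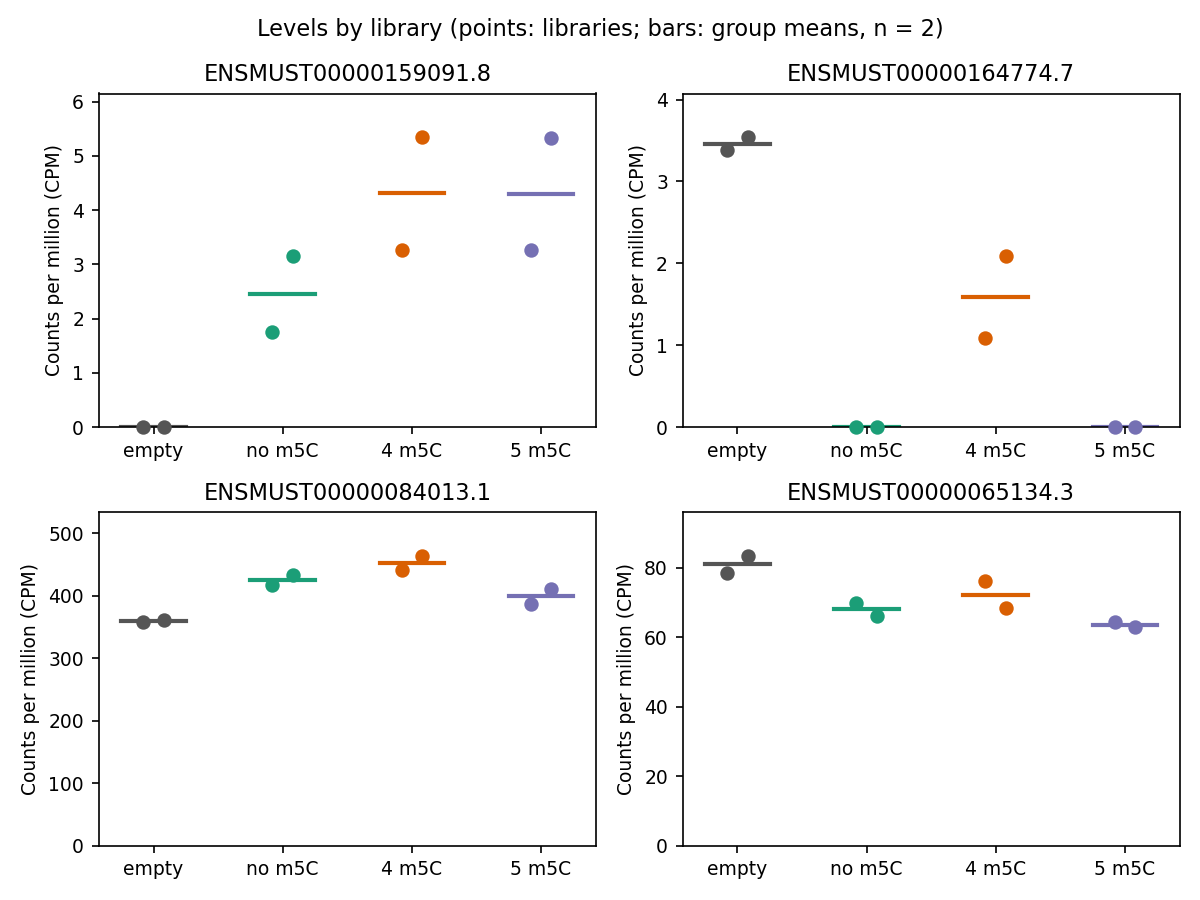
Level in CPM (vertical, from 0) of 4 transcripts in the 8 libraries, by group; points are libraries and bars are group means of 2. The upper transcripts range from 0 to 5.348 CPM, and the lower ones, called among whole-count transcripts, separate from empty by a small part of their level.

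Tested on their own, with the library sizes and scaling of all transcripts, 2 of the 1406 whole-count transcripts (0.142%) passed in edgeR, 1 higher and 1 lower with tsRNA-Gly. Before adjustment, 98 (6.97%) had a p under 0.05. The interval lay within 2-fold for 1085 of the 1406, or 77.2%. The spread was estimated anew in this set, with more of it borrowed across transcripts. The median prior degrees of freedom, which measure that borrowing, were 19.4 here and 2.57 over all transcripts. Among single versions, 0 of 1406 (0%) passed for no m5C, 1 (0.0711%) for 4 m5C and 1 (0.0711%) for 5 m5C, with 89 (6.33%), 57 (4.05%) and 136 (9.67%) at an unadjusted p under 0.05. DESeq2 called 1 whole-count transcript for no m5C.

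The transcript that rose was ENSMUST00000084013.1, only 297 bases long. Its level was 357.1 and 361.7 CPM in the empty libraries, 417.6 and 432.5 with no m5C, 441.5 and 464.2 with 4 m5C, and 386 and 411.3 with 5 m5C. The 6 tsRNA-Gly libraries all lay above the 2 empty ones. The mean was 359.4 CPM ± 3.23 (SD, n = 2) in empty and 425.5 ± 26.9 (SD, n = 6) with the fragment. This is a log2 fold change of 0.24 ± 0.043 SE, or 1.18-fold (95% interval 0.15 to 0.33). The adjusted p was 0.0125 in edgeR over the whole-count transcripts and 0.576 over all. Before adjustment, edgeR's p was 8.88e-06 and 0.000506 in that order, so the 2 fits differed by more than the number of tests.

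By version, its log2 fold change was 0.24 ± 0.052 SE with no m5C, 0.33 ± 0.052 with 4 m5C and 0.15 ± 0.052 with 5 m5C. Among whole-count transcripts 4 m5C alone passed (adjusted p of 0.0909, 0.00182 and 0.342 in edgeR), and the 3 versions were not shown to differ (adjusted p = 0.707). Insert size differed between the libraries. The gap between length and effective length, which kallisto takes from the inserts, was read over transcripts longer than 3000 bases. Its median was 238.1 and 228.7 bases in the 4 m5C libraries and 244.8 to 251.9 bases in the other 6. It was not read for this short transcript itself. The 2 libraries with the highest CPM of this transcript thus had the smallest of these medians, and the part of insert size in its difference was not tested. In the deposited TPM, a level per length that divides by effective length, the transcript stood at 6912 and 6530 in empty, 8028 and 7974 with no m5C, 8144 and 7906 with 4 m5C, and 7462 and 8108 with 5 m5C. The 6 lay above both empty libraries on that scale, where limma on log2(TPM + 1) over the whole-count transcripts gave an adjusted p of 0.582.

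The transcript that fell was ENSMUST00000065134.3, 2683 bases long. Its level was 78.38 and 83.45 CPM in the empty libraries, 69.82 and 66.09 with no m5C, 76.02 and 68.42 with 4 m5C, and 64.21 and 62.75 with 5 m5C. All 6 were below both empty libraries, with 4 m5C replicate 1 the closest to them. The mean was 80.92 CPM ± 3.59 (SD, n = 2) in empty and 67.88 ± 4.76 (SD, n = 6) with the fragment, a log2 fold change of -0.25 ± 0.051 SE (95% interval -0.36 to -0.14; adjusted p = 0.0413 in edgeR over the whole-count transcripts, 0.981 over all). Before adjustment, edgeR's p was 5.88e-05 over the whole-count transcripts and 0.00299 over all. By version the log2 fold change was -0.25 ± 0.064 SE with no m5C, -0.16 ± 0.063 with 4 m5C and -0.35 ± 0.063 with 5 m5C. Only 5 m5C passed on its own (adjusted p of 0.145, 0.947 and 0.0187), and a difference among versions was not shown (adjusted p = 0.88).

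**Figure D4:**
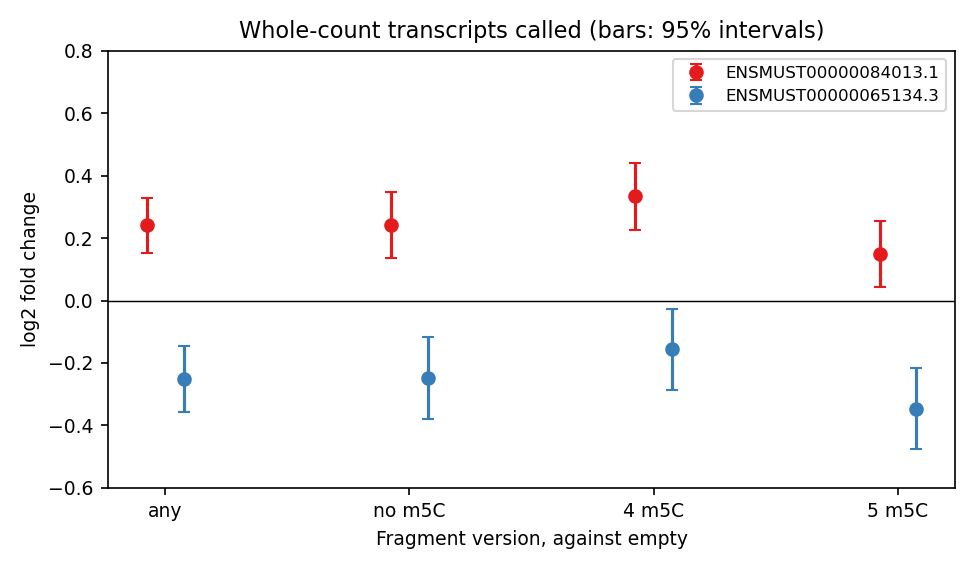
log2 fold change against empty (vertical) of the 2 called whole-count transcripts for any tsRNA-Gly and for each version (horizontal), with 95% intervals as bars. The upper transcript lies between 0.15 and 0.33 and the lower between -0.16 and -0.35, and the intervals of the versions overlap.

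Both calls depended on the libraries and the setting, that of ENSMUST00000065134.3 the more. Without 1 library at a time, the number of whole-count transcripts called for any tsRNA-Gly ranged from 0, without 5 m5C replicate 2, to 11, without empty replicate 1. ENSMUST00000084013.1 kept its adjusted p under 0.05 without any 1 library but 5 m5C replicate 2, where it was 0.0709 at a log2 fold change of 0.23. ENSMUST00000065134.3 passed without any 1 of 4 libraries and missed without empty replicate 2, no m5C replicate 2, 4 m5C replicate 2 and 5 m5C replicate 2 (adjusted p of 0.296, 0.0574, 0.17 and 0.0746 in edgeR). On log2(TPM + 1) with limma, 0 whole-count transcripts passed, with an adjusted p of 0.582 for both. In DESeq2 over the whole-count transcripts the adjusted p was 2.08e-06 for ENSMUST00000084013.1 and 0.149 for ENSMUST00000065134.3. With library sizes of their own it was 0.00229 and 0.0755 in edgeR. With the replicate number as a block it was 0.00456 and 0.0561 in edgeR.

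The whole-count transcripts leaned downward, and the lean depended on the scaling. With the scaling of all transcripts, 21 of the 98 at an unadjusted p under 0.05 were higher and 77 lower with tsRNA-Gly, and all 6 libraries lay above both empty ones for 30 transcripts (2.13%) and below for 83 (5.9%). Scaled by their own totals, 41 of 93 were higher and 52 lower, with 53 transcripts above and 51 below. Their median log2 fold change was -0.0285 in the first case and 0.00202 in the second. The 2 called transcripts kept their directions, at 0.27 and -0.22, and the lower one then missed the threshold (adjusted p = 0.0755 in edgeR).

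Among whole-count transcripts that did not pass, several of those of next lowest p were small differences in abundant RNA. A transcript of 243 bases was at 103.5 and 107.3 CPM in empty and at 80.04 to 98.86 over the 6 tsRNA-Gly libraries (edgeR's log2 fold change was -0.25 ± 0.058 SE and its adjusted p 0.0959). One of 2961 bases was at 236.6 and 238.6 CPM in empty and at 197.8 to 232.3 with tsRNA-Gly (-0.19 ± 0.047 SE on the log2 scale; edgeR's adjusted p was 0.11). The groups did not overlap in either. One of 1212 bases was less abundant and differed by more, at 10.19 and 10.07 CPM in empty and 6.373 to 8.392 with tsRNA-Gly. Its log2 fold change was -0.42 ± 0.106 SE (adjusted p = 0.135 in edgeR). A scarce transcript of 3089 bases was at 0 counts in both empty libraries, at 0.311 to 0.635 CPM in 5 of the tsRNA-Gly libraries and at 0 in 5 m5C replicate 1 (adjusted p = 0.221 in edgeR).

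For all transcripts, the number of calls depended on the tool. DESeq2, which estimates the spread of each transcript in another way, called 182 of the same 44374 transcripts (0.41%) for any tsRNA-Gly against empty, 98 higher and 84 lower. For single versions it called 209 (0.471%) with no m5C, 243 (0.548%) with 4 m5C and 119 (0.268%) with 5 m5C. All 182 had an unadjusted p under 0.05 in edgeR, and their lowest adjusted p there was 0.533. Of the 182, 95 had a rounded count of 0 in at least 1 library and 2 had whole counts, the 2 described above.

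A shared change in the strict sense, with one sign in all 3 versions and all 6 libraries outside both empty ones, held for 128 of the 182, 87 higher and 41 lower. Of these, 75 had no library at 0, 49 higher and 26 lower, with a median absolute log2 fold change of 0.80 and a median level of 17.4 CPM. They were a little longer than the tested transcripts at large, with medians of 2464 and 2033 bases. All 75 are calls of DESeq2 alone in the test of all transcripts. The 182 were called on these same libraries, so one sign and separation were largely built into that selection and add no support. Over all 44374 transcripts, all 6 libraries lay above both empty ones for 3.79% and below both for 3.59%.

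The most abundant of these 75 with fractional counts showed small shifts, not all of them even across the libraries. A transcript of 1728 bases was at 248.2 and 249.1 CPM in empty, 290.3 and 288 with no m5C, 265.9 and 275.5 with 4 m5C, and 286.5 and 266.8 with 5 m5C. Its log2 fold change was 0.16 ± 0.042 SE (adjusted p = 0.0456 in DESeq2 and 0.981 in edgeR), and the groups did not overlap. A transcript of 745 bases was higher by more, at 207.2 and 220.6 CPM in empty and 256.2 to 338.5 over the 6 others (0.41 ± 0.097 SE on the log2 scale; adjusted p of 0.0094 in DESeq2 and 0.981 in edgeR).

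In the other direction, a transcript of 5930 bases was at 1316 and 1271 CPM in empty, 1141 and 1099 with no m5C, 1236 and 1142 with 4 m5C, and 1124 and 1136 with 5 m5C. Its log2 fold change was -0.18 ± 0.04 SE (adjusted p = 0.00381 in DESeq2 and 0.913 in edgeR). As with ENSMUST00000065134.3, the library nearest to empty was 4 m5C replicate 1. A transcript of 1047 bases was at 1025 and 1054 CPM in empty and 867.1 to 997.4 with tsRNA-Gly (-0.15 ± 0.037 SE on the log2 scale; adjusted p of 0.0159 in DESeq2 and 0.981 in edgeR). These 4 were picked after their values were seen, as the 2 most abundant in each direction.

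Length was looked at as a property that the comparison did not use. The median log2 fold change for any tsRNA-Gly was 0.03 in the 2488 tested transcripts of up to 500 bases, -0.03 in the 8397 of 1001 to 2000 bases and 0.03 in the 4314 of over 5000 bases. Among whole-count transcripts it was 0.12 in the 58 of up to 500 bases and -0.04 in the 429 of 1001 to 2000 bases. The shortest class was the highest in both sets, by little over all transcripts. ENSMUST00000084013.1 is 1 of those 58, and whether its difference belongs to that of short transcripts in general was not tested.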

How the data were processed

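The 8 libraries of 3T3 cells were made from mRNA with a stranded kit per the labels' protocols; the other 8 samples of the series are sperm small RNA and were not used here. For each transcript the authors deposited an estimated count and a TPM value. The submitters' processing notes name kallisto, without a version, and the build GRCm38. Filters before deposit are not given in the sources used here.

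Rounded estimated counts were fitted in edgeR 4.0.16 (R 4.3.3) by quasi-likelihood, with TMM scaling, filterByExpr and 4 group means; any tsRNA-Gly is the mean of the 3 versions minus empty. A Benjamini-Hochberg adjusted p under 0.05 over all transcripts tested was called. CPM are on the TMM scale. Depth was 16326238 to 27014080 estimated counts; a count of 0 allows up to 3 counts, which is 0.111 to 0.184 CPM before TMM scaling and 0.186 CPM on the TMM scale in the shallower empty library, and this covers counting error only. The deposited TPM were tested with limma 3.58.1 as log2(TPM + 1), for a mean TPM of at least 1. DESeq2 1.42.0 was another alternative. The 2 kinds of count, whole and fractional, were separated after seeing the data. Scripts were tested on simulated data. Figures were drawn with matplotlib 3.10.9.

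None of the 109282 transcript IDs was found in the gene tables, so the planned gene-level test and gene lists were not run. 652 tested transcripts had values equal to those of another in all 8 libraries, so tests are fewer than transcripts. Replicates differed by more than counting noise in every group (chi-square per transcript of 7.52 to 9.69, and 1.73 to 4.7 for whole counts). The transcripts named by ID are those of lowest p above and below empty with one sign in all 3 versions, and, chosen after their values were seen, the 2 called among whole-count transcripts. The comparison and the lists were chosen with earlier results of these data known.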

Additional observations from a re-analysis of the deposited data

Results flagged for a closer look

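Of 8 quantities looked at over the 6 tsRNA-Gly libraries, 1 had a library far from the rest: the 100 highest transcripts took 17.88% of the counts in no m5C replicate 2, and the gap to the next library was 0.659 of the range. Chance sets such a library apart in about 1 of 20 groups of this size.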

How the results depend on the processing

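For any tsRNA-Gly against empty, the count of 0 held with DESeq2 size factors in edgeR, with a mean of at least 50 counts, with limma on log2(TPM + 1), at an adjusted p under 0.1, with the 6 libraries as 1 group and with a robust prior (added after seeing the data). DESeq2 called 182 transcripts, 167 of them with one sign in all 3 versions. One sign held for 49.9% of all 44374 transcripts in edgeR, and selection on the pooled comparison largely builds it in. Testing without a filter on low counts called 11 of 78304 transcripts, 8 of them with one sign.

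For no m5C, 4 m5C and 5 m5C, DESeq2 called 209, 243 and 119 of 44374, and no filter gave 21, 27 and 2 of 78304. For 4 m5C, a mean of at least 50 counts and an adjusted p under 0.1 each gave 2. Without 1 library at a time, each of these 5 counts ranged from 0 to 2; it was 2 without empty replicate 1 and 0 otherwise. Where 1 library was left in a group, its spread was taken to equal that of the other groups. The cause was not tested.

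Differences between replicates correlated at -0.024 to 0.061 over 6 pairs of groups, and at -0.075 to 0.071 over the whole-count transcripts. No pairing by replicate number was seen. Noise in scarce transcripts lowers such an r, so these values cannot show that pairing was absent. With the replicate number as a block, 0 of all transcripts passed in each of the 4 comparisons, and 1 whole-count transcript passed for any tsRNA-Gly in place of 2, with ENSMUST00000065134.3 at an adjusted p of 0.0561 in edgeR.

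All settings for whole-count transcripts were added after seeing the data. For any tsRNA-Gly, 1 passed in DESeq2, 1 with library sizes of their own, 3 with the 6 libraries as 1 group, 5 with a robust prior and 0 with limma on log2(TPM + 1). For no m5C, 1 passed in DESeq2 and 6 with a robust prior. For 4 m5C, 2 passed with values within 0.01 of a whole number and 0 with limma; for 5 m5C, 0 passed in DESeq2 and 0 with limma. Without 1 library at a time, the counts ranged from 0 to 11, 0 to 4, 0 to 3 and 0 to 8 in the order any, no m5C, 4 m5C and 5 m5C. In the test of all transcripts, the 4 named by ID kept their direction with DESeq2 size factors, in DESeq2, with the block, with the 6 libraries as 1 group and without each library. They were not followed there without a filter, at a mean of at least 50 counts, with limma or with a robust prior. The 2 called among whole-count transcripts kept theirs in each setting for that set. Depth limits scarce transcripts: below 2 CPM, 9.87% of those with fractional counts had an interval within 2-fold.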
